A study of Mus musculus with 8 samples.

Results

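Mouse liver ChIA-PET of RNA polymerase II (Pol II) was examined for paired-end tags (PETs) that touch mitochondrial DNA. This assay joins DNA ends held in one crosslinked complex and reads a short tag from each side. A PET was taken when the chromosome of its read-1 end or of its read-2 end was chrM, which gave 2265 of 2753554 PETs. The PETs were thus selected on the mapped chromosomes of their ends, and their large number in 1 experiment was known when the rule was written. That number is therefore given below as a description.

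The livers came from wild-type C57BL/6 mice aged 3 to 6 months, kept in 12 h of light and 12 h of dark with food at all times. They were taken at ZT06, the middle of the day, or ZT18, the middle of the night. Per the labels' protocols, nuclei were purified and chromatin of 3 to 7 livers was combined before pull-down with the Pol II antibody 8WG16. For each time point, experiment 1 (JM08) comprised 2 libraries, while experiments 2 (JM11) and 3 (JM12) comprised 1. Experiments 1 and 3 were crosslinked with 1.5 mM EGS and 1% formaldehyde, and experiment 2 with 1% formaldehyde alone. The table marks a PET by its experiment and its linker tag but not by its library, so day and night libraries of an experiment cannot be told apart. Each experiment is 1 pool with no replicate, and no test between pools was made. Intervals are 95%, exact, and cover counting error only, since no spread between replicates can be measured. The reads carry no molecular identifiers, so copies of a molecule cannot be told from separate molecules. Of 6 hepatocyte genes, Alb, Apoa1, Ttr, Tat and Apoa2 had 7.28 to 103 times the mean nuclear density of ends, over the 3 experiments. Serpina1a, which has near-identical copies beside it, had 4.94, 0.302 and 0.932 times in experiments 1, 2 and 3.

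Mitochondrial DNA is a small circle present in many copies per cell, and hepatocytes are rich in it. It is packed into nucleoids by TFAM and transcribed by POLRMT, the organelle's own RNA polymerase, not by Pol II. It encodes core subunits of the respiratory chain complexes, with the ribosomal and transfer RNAs needed to translate them. Its main non-coding part is the control region, which holds start sites of transcription and of replication. Fragments of it have also been copied into nuclear chromosomes, and a tag from a recent copy can match both places.

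Experiment 3 held 2239 of the mitochondrial PETs, experiment 1 held 12 and experiment 2 held 14. As a share of all PETs, experiment 3 reached 0.267% (0.256 to 0.278%). Experiment 1 reached 0.00253% (0.00131 to 0.00442%), and experiment 2 reached 0.000973% (0.000532 to 0.00163%). The share in experiment 3 was 105 times that in experiment 1 and 274 times that in experiment 2. The linker tags within experiment 3 gave similar shares, 0.262% for ATGT (0.246 to 0.278%) and 0.271% for TAAG (0.256 to 0.287%). Densities were counted per kb outside a stretch of 4631 bp without an end, described below. On this basis the mitochondrial chromosome had 216 ends per kb in experiment 3, or 343 times the nuclear mean (330 to 357 times). The nuclear mean was taken over the whole span of nuclear ends, with nothing left out. In experiment 1 it had 1.11 ends per kb, 3.13 times the nuclear mean (1.66 to 5.34 times). In experiment 2 it had 1.29 ends per kb, 1.19 times the nuclear mean (0.665 to 1.96 times), an interval that covers equal density. Leaving the stretch out of the mitochondrial length alone raises each of these ratios, so they are upper readings.

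In experiment 3 the mitochondrial ends numbered 2525, of which 1278 were read-1 ends and 1247 read-2 ends. They lay at 2020 distinct positions, with at most 6 at a single position, and reached from position 18 to position 16279. No 2 mitochondrial PETs were identical, and 2236 of 2239 were left after PETs within 2 bp at both ends were collapsed.

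The ends were unevenly spread along the circle. Of 33 windows of 500 bp, counted from the start of TrnF, 24 held an end and 9 held none. The median was 69 ends over all windows and 109.5 over windows with an end. The 3 highest windows were 11001 to 11500 in ND4 with 202 ends (175 to 232), 2501 to 3000 over mt-Rnr2, TrnL1 and ND1 with 189 (163 to 218), and 3001 to 3500 in ND1 with 172 (147 to 200). ND1 and ND4 encode subunits of complex I, which passes electrons from NADH into the chain. Among windows with an end, the 3 lowest ran from 5001 to 6500, over TrnW, TrnA, TrnN, TrnC, TrnY and COX1, with 22, 27 and 26 ends in that order. The highest window was 9.18 times the lowest of those with an end, and their intervals do not overlap. Intervals of windows and of densities count ends singly, but 572 of all 2525 ends came in pairs from both-end PETs. These intervals are therefore likely too narrow.

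**Figure D1:**
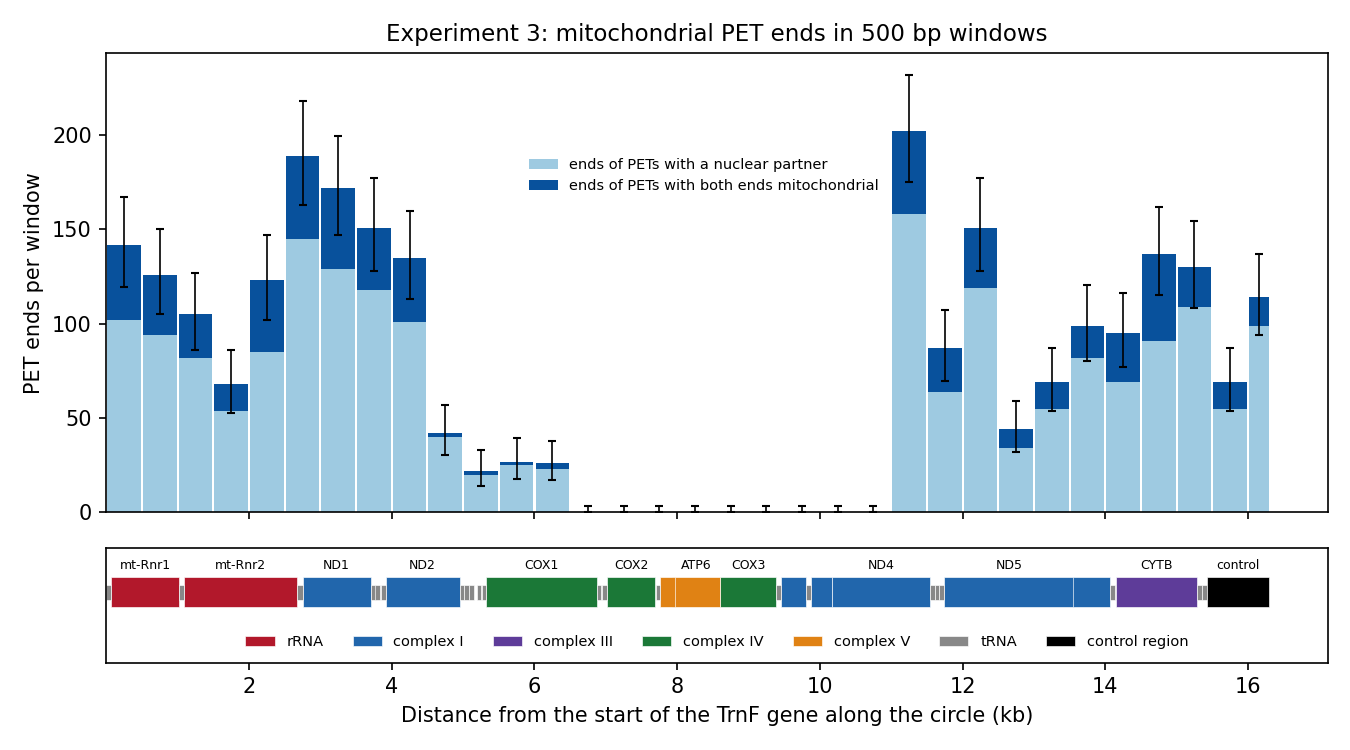
Mitochondrial PET ends of experiment 3 in 500 bp windows, by distance from the start of TrnF along the circle in kb. Bars divide the ends by the PET's partner, error bars are 95% Poisson intervals of the total (the last window is shorter), and blocks mark genes. The 9 windows with 0 ends lie together between COX1 and ND4.

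The 9 windows without an end are adjacent and belong to a single stretch of 4631 bp, chrM:6394-11024 (mm10). It covers 28.4% of the circle, where 717 ends would lie if ends were evenly spread, and it held 0 of 2525, which allows a share of up to 0.119%. The next longest stretch without an end measured 269 bp, from 15641 to 15909 in the control region. The edges of the long stretch were sharp. The last end before it was at 6393 in COX1, and 33 ends lay in the 500 bp before it. The first end after it was at 11025 in ND4, and 204 ends lay in the 500 bp after it. The small pools also left it empty. Experiment 1 had 13 mitochondrial ends and experiment 2 had 15, and 0 of these 28 lay in the stretch, which allows a share of up to 10.7%. In experiment 1, 7 ends lay within the first 4.5 kb, 1 between there and the stretch, and 5 after it. In experiment 2 these numbers were 9, 0 and 6, and 2 of the 9 came from 1 both-end PET. Of its 15 ends, 6 were in ND1, which held 364 of 2525 in experiment 3. With so few ends, no concentration in ND1 is read from this count.

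The empty stretch was set against 2 pseudogenes of the RefSeq gene table (GRCm38.p6, the assembly of mm10). These were looked up by name, and other pseudogenes were not placed. Gm10925, a pseudogene with mt-Atp6 among its synonyms, lies on chromosome 1 from 24613971 to 24614651 and measures 681 bp. ATP6 itself, a subunit of the proton channel of ATP synthase, also measures 681 bp, from 7927 to 8607 of the mitochondrial chromosome. A neighbouring pseudogene, Gm10222, lies on chromosome 1 from 24612404 to 24612700 and measures 297 bp. Its synonyms name no mitochondrial gene, but ND4L, a complex I gene at 9877 to 10173, also measures 297 bp. Of 9955 pseudogenes, 6 measure 681 bp and 4 measure 297 bp, so a length alone singles out neither. Read in reversed order, both pairs are placed by a single offset to within 1 bp. Read in the same order, their offsets differ by 3517 bp. With the reversed offset of Gm10925, the empty stretch corresponds to chromosome 1 from 24611554 to 24616184. The sequence of the 2 places was not used here, so their identity was not measured.

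Few ends lay in this extrapolated counterpart on chromosome 1. Experiments 1 and 2 had 0 ends there and experiment 3 had 1, at 24613108, whose partner was on chromosome 10. The flanks of 25 kb on both sides held 12, 48 and 20 ends in experiments 1, 2 and 3. At the density of the flanks the counterpart would hold 7.41 ends in all, so the single end is 0.135 of that (0.00342 to 0.752). Taken singly, experiment 1 gave a ratio of 0 (0 to 3.32) and experiment 2 also 0 (0 to 0.830), while experiment 3 gave 0.540 (0.0137 to 3.01). The pooled shortfall therefore rests on experiment 2, where the flanks would give 4.45 ends. They would give only 1.11 in experiment 1 and 1.85 in experiment 3, so even a count of 0 could not show a shortfall there. These intervals take the flank counts as free of error. Empty runs of this length were not particular to the counterpart: the flank before it held one of 4646 bp, from 24603642 to 24608287 of chromosome 1, and the longest in the flank after it was 3140 bp. No mitochondrial PET of experiment 3 had its nuclear end in the counterpart, and the nearest partner on chromosome 1 was 136 kb away. At the nuclear mean, all nuclear ends of experiment 3 would put only 2.92 in the counterpart. The 1953 partners are a small part of those ends, so a count of 0 was likely beforehand and nothing is concluded from it. Whether tags that match both places had been left out of the table was not tested, and no source used here states the mapping settings.

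**Figure D2:**
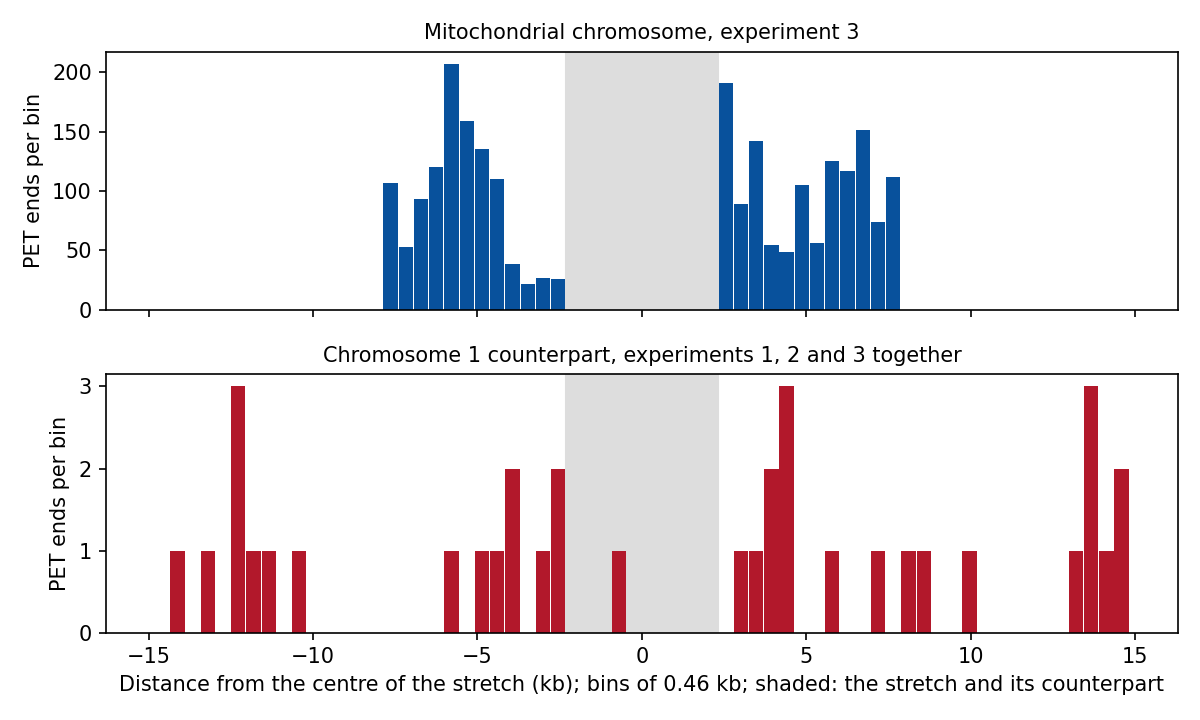
PET ends in bins of 0.463 kb by distance in kb from the centre of the empty stretch on the mitochondrial chromosome (top, experiment 3) and of its counterpart on chromosome 1 (bottom, experiments 1, 2 and 3 together). Within the shaded 4631 bp there are 0 ends above and 1 end below.

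Genes in the empty stretch have no value. Of 37 genes in the table, 22 held an end in experiment 3 and 15 held none. Of the 15, 11 lie wholly within the empty stretch. These 11 are COX2 and COX3 of complex IV, which reduces oxygen, both complex V genes (ATP6 and ATP8), ND3 and ND4L of complex I, and 5 transfer RNA genes (TrnS1, TrnD, TrnK, TrnG and TrnR). COX1 and ND4 lie partly within it. The other 4 genes without an end, TrnW, TrnN, TrnY and TrnH, are at most 71 bp long. Other transfer RNA genes of such length did hold ends, as TrnP with 28 over 67 bp. TrnH lies in an empty run of 121 bp, from 11509 to 11629. The 500 bp before that run held 204 ends and the 500 bp after it 123. For none of these 15 genes does the absence of ends say how much of that DNA was in the libraries.

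Densities were compared per kb over the part of each gene outside the empty stretch. Over all such positions there were 216 ends per kb (208 to 225). Both ribosomal RNA genes were covered, with 276 ends per kb for mt-Rnr1, the RNA of the small ribosomal subunit (244 to 312), and 197 for mt-Rnr2, that of the large subunit (176 to 220). Complex I genes had 251 together (237 to 265), and they differed among themselves. ND4 had 392 (340 to 450, over 520 bp) and ND1 had 380 (342 to 422), while ND2 had 205 (179 to 235), ND5 had 189 (170 to 210) and ND6 had 179 (145 to 220). ND6 is the only one of these proteins encoded on the opposite strand, and its interval overlaps those of ND2 and ND5. CYTB, the mitochondrial subunit of complex III, had 237 ends per kb (210 to 267).

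COX1, the catalytic subunit of complex IV, had 61.9 ends per kb over the 1066 bp outside the stretch (47.9 to 78.8), the lowest of the protein and ribosomal RNA genes with a value. The drop begins before COX1. Between 4.5 kb and the stretch there were 61.8 ends per kb (51.1 to 74.1), against 269 in the first 4.5 kb (254 to 285). This segment, which also holds the end of ND2 and 5 transfer RNA genes, also had few ends of PETs within the circle. Ends of PETs with both ends mitochondrial were 9 of its 117 ends, or 7.69% (3.58 to 14.1%). They were 24.9% of 1211 ends before it (22.4 to 27.4%) and 21.9% of 1197 ends after the stretch (19.6 to 24.3%). These intervals count ends, and a both-end PET gives 2 of them. The segment was delimited after its low density was seen, and the measure is not independent of that density, since most such PETs are short and need a second end nearby. The 22 transfer RNA genes together had 139 ends per kb (119 to 162), from 0 in the 4 genes named above to 418 in TrnP (278 to 604).

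The control region from 15423 onwards had 263 ends per kb (231 to 300), close to mt-Rnr1, but its ends were concentrated at both sides. Its first 200 bp held 64 and 43 ends per 100 bp. The next 400 bp held 7, 0, 3 and 3, and the following 100 bp held 69. No tag sequence was at hand to ask whether this middle part can be mapped.

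**Figure D3:**
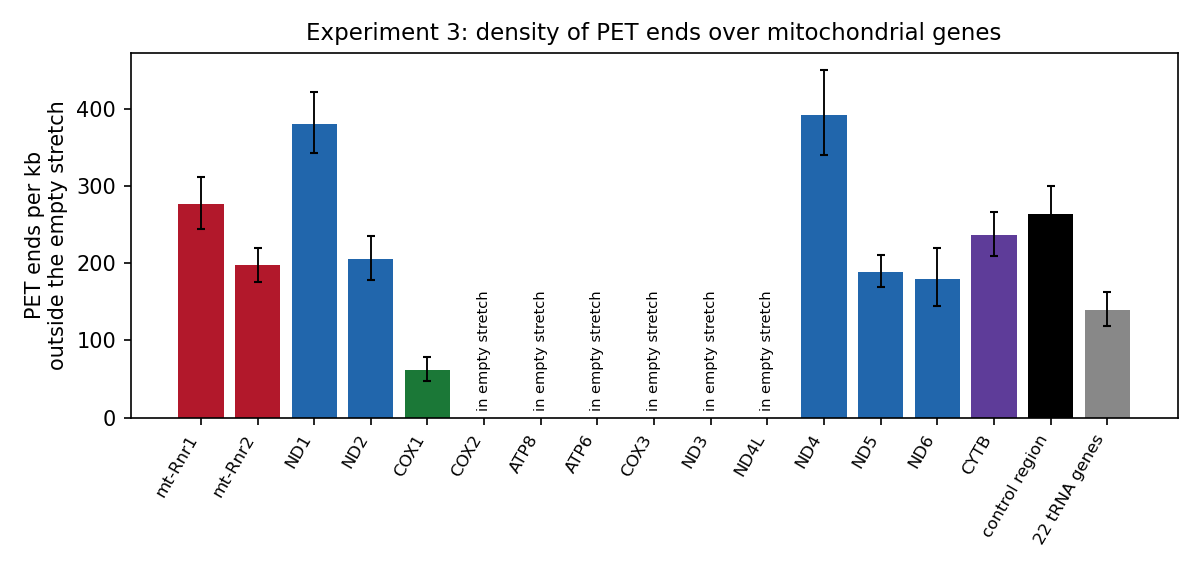
PET ends per kb of experiment 3 over each mitochondrial protein and ribosomal RNA gene, the control region and all 22 transfer RNA genes together, for positions outside the empty stretch. Error bars are 95% Poisson intervals, and COX1 at 61.9 ends per kb is the lowest bar among the genes with a value.

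PETs with both ends on the mitochondrial chromosome numbered 286 in experiment 3, or 12.8% of its mitochondrial PETs (11.4 to 14.2%). Experiments 1 and 2 had 1 each, with ends 213 and 164 bp apart. If every end of experiment 3 had joined any other at random, 1.90 such PETs would have been found, so the observed number was 151 times that (134 to 169 times). A nuclear piece of the same length gives a comparison. Among the 232 nuclear segments of that length with at least 50 PETs in experiment 3, a median of 14.1% of PETs had both ends in the segment, and 9.65% did with the segments pooled. The 30 segments with at least 100 PETs had a median of 5.63% and 4.12% pooled. All 152500 segments with a PET had a median of 0% and 7.72% pooled. The mitochondrial share was above that of 35.3%, 60% and 78.6% of these segments, so its place among them depends on the number of PETs required.

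Most of these PETs were short on the circle. Their median distance was 302.5 bp, with quartiles of 175 and 1002 bp, and the longest was 7116 bp. The deposited distance follows the linear numbering for all 286. As a result, 6 PETs that join ends at most 1 kb apart through the start of the numbering are listed with distances of 15424 to 16104 bp, whereas they span 216 to 895 bp on the circle. In all, 32 PETs were shorter through that point than along the numbering. Taken as deposited, those 6 would count as long contacts.

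The distances were compared with the number expected if each read-1 end of these 286 PETs could join the read-2 end of any other, which keeps the uneven coverage. Between 100 and 200 bp there were 78 PETs against 6.55, a ratio of 11.9 (9.41 to 14.9). From 200 to 300 bp there were 53 against 5.59, a ratio of 9.49 (7.11 to 12.4). The ratio was 3.88 from 300 to 500 bp (2.80 to 5.25) and 1.16 from 500 to 1000 bp (0.781 to 1.65), where the interval covers 1. Beyond 1 kb it was below 1, and over 4 kb there were 18 PETs against 108.5, a ratio of 0.166 (0.0983 to 0.262). At most 1 kb apart there were 214 PETs against 55.7, a ratio of 3.84 (3.35 to 4.40). The expected numbers spread the same 286 PETs over all distances. The excess at short distance and the shortfall beyond 1 kb are therefore not separate results.

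**Figure D4:**
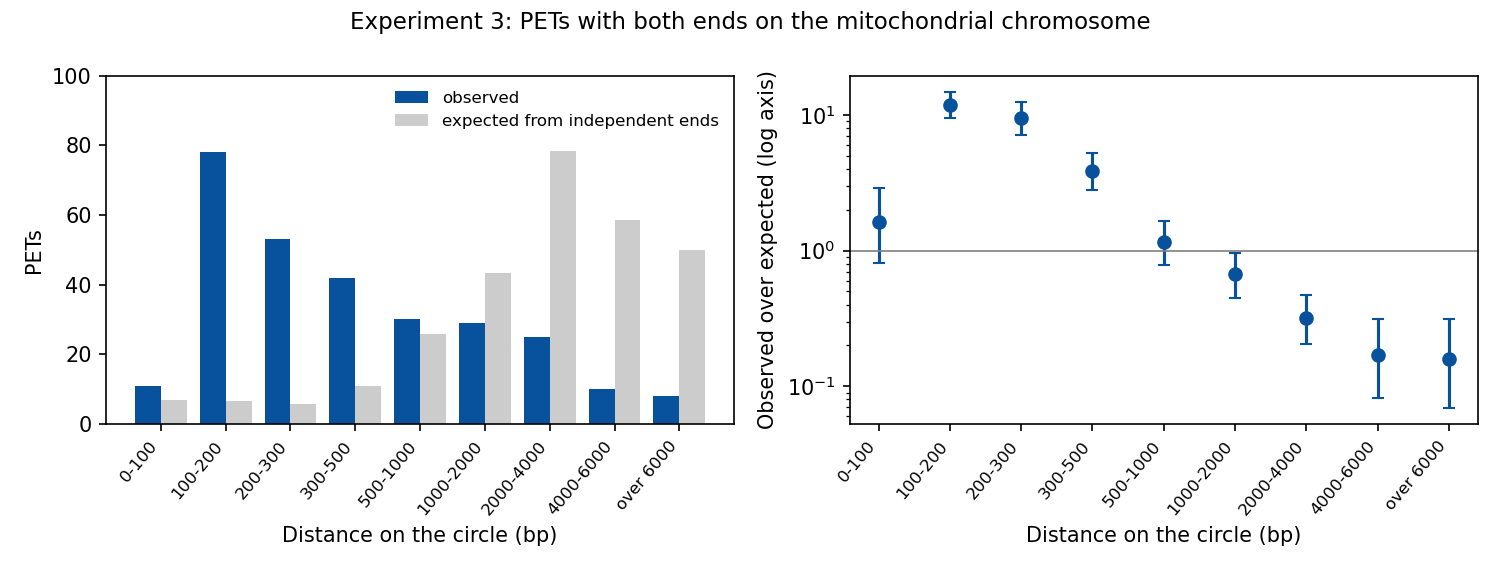
PETs of experiment 3 with both ends on the mitochondrial chromosome, by distance on the circle in bp. Left, observed numbers and those expected from independent ends; right, their ratio on a log axis with 95% Poisson intervals, from 11.9 between 100 and 200 bp to 0.160 over 6000 bp.

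The longer PETs were still more frequent than random joining of all ends of experiment 3 would give. Over 2 kb there were 43 against 1.26, a ratio of 34.2 (24.7 to 46.0), and over 4 kb there were 18 against 0.748, a ratio of 24.1 (14.3 to 38.1). PETs over 2 kb made up 15.0% of those within the circle (11.1 to 19.7%). Among the 123705 nuclear PETs of experiment 3 whose ends were at most as far apart as the circle allows, 4.60% were over 2 kb. For distances over 4 kb the shares were 6.29% on the circle (3.77 to 9.77%) and 0.943% in the nucleus. At most 1 kb apart were 74.8% of the mitochondrial PETs (69.4 to 79.7%) and 87.8% of the nuclear ones. The nuclear median was 230 bp. The mitochondrial PETs therefore had more long distances than the nuclear PETs, beyond counting error. In 2 PETs the shorter arc between the ends spanned the empty stretch.

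The remaining 1953 mitochondrial PETs of experiment 3 had a nuclear partner. Their nuclear ends were compared with the 1344406 nuclear ends of PETs between nuclear chromosomes in the same experiment. For 0 of 21 chromosomes (0%) did the interval of the partners' share leave out the share of these reference ends. Chromosome 2 came closest, and the call was not stable. With 169 partners or 8.65% (7.44 to 9.99%) against 7.45%, its interval just covered the reference. After PETs within 2 bp were collapsed, the intervals of chromosome 2, with 8.67%, and chromosome 13, with 3.64% against 4.60%, left it out. Chromosome 1, where Gm10925 and Gm10222 lie, had 7.22% of the partners (6.11 to 8.46%) against 7.30%. Chromosome X had 2.56% (1.91 to 3.36%) against 2.40%, and chromosome Y had 1 partner.

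**Figure D5:**
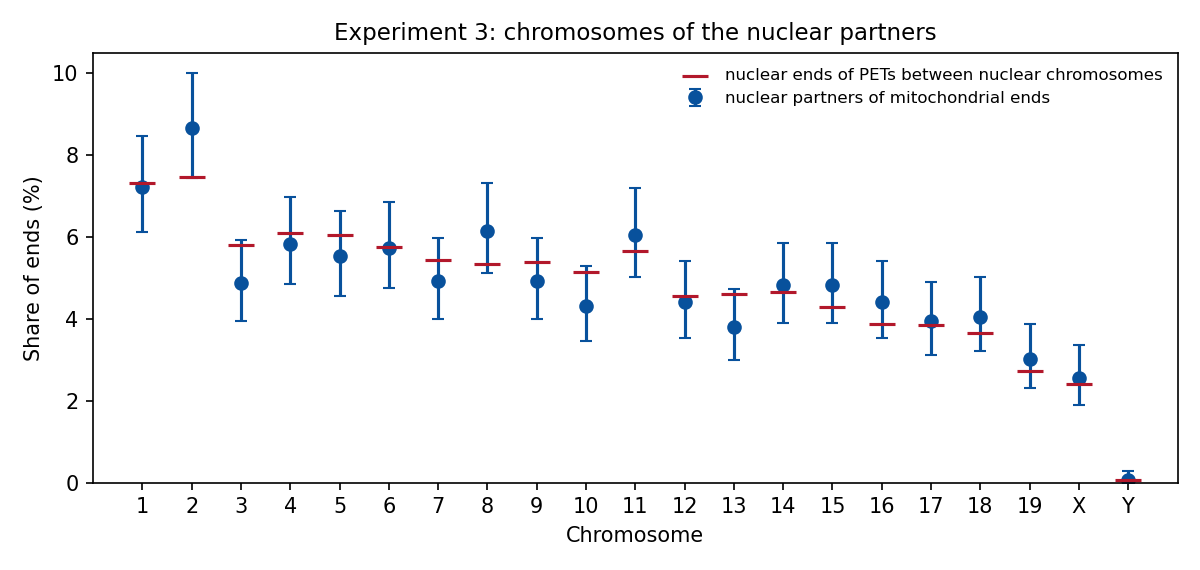
Share of nuclear ends on each chromosome in experiment 3, in percent, for the 1953 partners of mitochondrial ends (points, 95% binomial intervals) and for the reference ends (dashes). Each interval covers the reference share, with chromosome 2 nearest to leaving it out.

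Near genes, the partners' shares lay close to those of the reference. Within 2.5 kb of a boundary of a protein-coding gene lay 12.0% of the partners (10.6 to 13.5%) and 12.2% of the reference ends, a ratio of 0.984 (0.869 to 1.11). Within 1 kb the shares were 6.35% (5.31 to 7.52%) and 6.98%. Inside a protein-coding gene lay 48.2% of the partners (46.0 to 50.5%) and 48.5% of the reference. In experiments 1 and 2, 1 of 11 and 0 of 13 partners lay within 2.5 kb of a boundary, too few to compare. The 5 bins of 10 kb with the most reference ends held 0.410% of the partners (0.177 to 0.806%) and 0.486% of the reference. No departure from the reference was detectable on these measures at this depth. Partners of ends between 4.5 kb and the stretch were near a boundary in 6.48% (2.65 to 12.9%), those of ends before it in 12.1% and after the stretch in 12.5%, with overlapping intervals (10.0 to 14.4% and 10.5 to 14.8%).

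Few nuclear places were joined repeatedly. Of 240234 bins of 10 kb, 15 (0.00624%) had 2 or more mitochondrial PETs, where 14.0 would if partners followed the reference. Bins of 3 or more numbered 3, where 1.6 would on the same basis. The first, on chromosome 14 from 19410000 to 19419999, had 6 PETs against 3.10. It is also among the 5 bins with most reference ends, and its 6 PETs came from 6 mitochondrial positions. The second, on chromosome 13 from 29210000 to 29219999 within Cdkal1, had 4 PETs that shared mitochondrial position 1949 and whose nuclear ends lay within 6 bp. The third, on chromosome 4 from 99580000 to 99589999 with no protein-coding gene, had 3 PETs that shared position 4130 and lay within 12 bp. The last 2 places thus each rest on PETs of nearly the same positions. Bins with 2 PETs numbered 12, and the 10 with the highest ratio to the number expected were looked at by gene. Of these, 6 overlap a protein-coding gene: Ankar on chromosome 1, Pgr on 9, Fbxw11 on 11, Camkk2 on 5, Trhde on 10 and Pcca on 14. The share of all bins that overlap such a gene was not computed. Since 48.5% of single reference ends lie inside one, the 6 of 10 are not read as a preference for genes. The 10 bins held only 1 to 19 reference ends, which makes their ratios high. Each of the 10 joined 2 distinct mitochondrial positions. In 3 of them, the bin in Ankar (from 72700000) among them, both PETs shared a single nuclear position.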

How the data were processed

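The authors deposited 1 table without a header, with a row for each PET. Each row holds the experiment, the linker tags, both ends' coordinates and the bp between them, which are other quantities than counts or scores. The submitters' processing notes name Bowtie2 and mm10. No source used here states their settings, the mapping filters or how duplicates were handled. Positions were used as deposited, and all counts were computed here with Python 3.11.15, NumPy 2.4.6, pandas 2.3.3 and SciPy 1.17.1.

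Ends were counted in 500 bp windows. Distances took the shorter way round the circle, whose length is background knowledge and is in no file used here. Expected numbers were computed over all pairs of ends, without random draws. Shares have exact binomial and counts exact Poisson intervals of 95%, and 3 counts serve as the limit of a count of 0. Counting functions were tested on simulated data. Gene names and positions came from RefSeq on GRCm38.p6, matching 37 mitochondrial genes; a gene's boundary is either annotated end. The nuclear length was taken from the span of observed ends.

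Named were all mitochondrial genes by group, the 3 highest and lowest windows, bins with at least 3 PETs and up to 10 bins with 2. The 3 lowest are those with an end, since 9 had none. The members and lists were chosen with earlier results of these data known. Experiment pools hold 474478, 1438866 and 840210 PETs.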

Additional observations from a re-analysis of the deposited data

How the results depend on the processing

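Of 109 alternative values for 15 results, 87 lay inside the interval of the reported value, or within 1.5 times of a count, and 22 moved. No significance could be lost, since no test was made. No paired analysis was possible because the table names no library. Leaving out a replicate could not be run for the same reason. In experiment 3, keeping only PETs with unshared positions gave a mitochondrial share of 0.212%, a both-end share of 10.0% and 7 bins with 2 or more PETs. With this setting, 2 of 21 chromosomes (3 and 7) had an interval that left out the reference. Collapsing near-duplicates within 2 bp or 10 bp also left 2 chromosomes outside, chromosomes 2 and 13. Linker ATGT alone gave 3 such chromosomes of 21, 4 bins, a boundary ratio of 0.866, and a share of 0.00103% in experiment 1. Linker TAAG alone gave 2 chromosomes and 7 bins. Bins of 100 kb gave 82 of 25642 (0.320%) with 2 or more PETs, where 85.1 would if partners followed the reference. Per end, the share was 0.150% in experiment 3 and 0.000521% in experiment 2. The highest window over the median, 2.93 at 500 bp, was 3.94 at 250 bp, 1.85 at 1000 bp and 1.84 over windows with an end. The last setting, chosen after seeing the data, gave 0.201 for the lowest window in place of 0, and a Spearman rho of 0.849 in place of 0.941 between ends of both-end and nuclear-partner PETs. These windows share a library and are not independent. The excess of short both-end PETs was 6.18 at most 500 bp and 2.45 at most 2 kb. In experiments 1 and 2, 12 and 14 PETs limit every value.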
